A study of Mus musculus with 16 samples.

Results

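The apoptosis and death receptor genes were 33 genes, taken by name from the 24421 gene names in the abundance tables of 16 dentate gyrus libraries, and each was listed once in each table. They comprised 4 death receptors, 3 adaptors of those receptors, 1 inhibitor of caspase 8, 4 genes for inhibitors of apoptosis and their antagonist, 4 caspases, 2 apoptosome components, 3 pore-forming Bcl2 family members, 8 genes for BH3-only proteins and 4 pro-survival Bcl2 family members. The dentate gyrus, a part of the hippocampus in which neurons are born in adult life, came from male C57BL/6 mice aged 1 year in 4 groups of 4 libraries. These were p16 WT CTL (p16Ink4a +/+, sedentary), p16 KO CTL (p16Ink4a -/-, sedentary), p16 WT RUN (p16Ink4a +/+, 12 days with a running wheel) and p16 KO RUN (p16Ink4a -/-, 12 days with a running wheel). As 2 mice were pooled in each library, p-values rest on the spread between pools. The null allele was made in FVB mice and crossed into C57BL/6, is carried by every cell of the mouse, and leaves p19Arf, the other product of the Cdkn2a locus, functional.

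Apoptosis can start at the cell surface, where death receptors such as Fas bind ligands of the tumor necrosis factor family and recruit Fadd and caspase 8, or at mitochondria, where Bax and Bak1 open the outer membrane and release cytochrome c. Released cytochrome c joins Apaf1 and caspase 9 in the apoptosome, which activates the effector caspases. BH3-only proteins promote the opening of the membrane, pro-survival Bcl2 proteins block it, and Bid links both routes because caspase 8 cleaves it. In the adult dentate gyrus most newborn cells die by apoptosis before they mature, but such cells are a small share of the tissue, and RNA levels do not report caspase cleavage.

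Levels are given in TPM, a share of transcripts corrected for gene length. No read counts were used, so no counting error can be given for low levels. Coverage per unit of TPM, as its most common value over genes, ranged from 1.84 in p16 WT RUN replicate 10 to 6.00 in p16 WT CTL replicate 2. Single genes can depart from it. The targeted gene Cdkn2a lay between 0 and 0.586 TPM across all 16 libraries and does not tell the genotypes apart. Markers of dentate granule neurons were present in every library, with Prox1 at 58.1 to 187 TPM and C1ql2 at 199 to 610 TPM. The leading principal component (20.9% of the variance) set apart p16 WT CTL replicate 2 and p16 KO CTL replicates 6 and 7. In these 3 sedentary libraries the summed TPM of 7 nuclear long noncoding RNAs was 969, 537 and 474, against 1814 to 2514 in the other 13. As 2 of the 3 belong to p16 KO CTL, each called member in a comparison with that group is given with and without them, and so are the counts over all genes and the other pathway genes named. Their part in the results was not tested. In bulk tissue, fewer cells of a type and less RNA per cell cannot be told apart.

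The mean levels ran from 0.107 TPM (Bik) to 162 TPM (Bok). Averaged over the 16 libraries, 8 members had at least 50 TPM, 10 had 10 to 50 TPM, 12 had 1 to 10 TPM and 3 had under 1 TPM. The pro-survival class was the steadiest, with its 4 genes summing to 272 to 293 TPM (coefficient of variation 2.38%), and within it Bcl2l2 (Bcl-w) averaged 116 TPM, Bcl2l1 (Bcl-x) 100.2 TPM, Mcl1 57.8 TPM and Bcl2 6.04 TPM. The 3 pore-forming members summed to 225 to 352 TPM, led by Bok (162 TPM) and Bax (99.7 TPM), with Bak1 at 17.5 TPM. Bok exceeded Bax in 13 of 16 libraries. Cytochrome c (Cycs) averaged 108 TPM and its partner Apaf1 11.7 TPM.

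Among the genes for BH3-only proteins, Bad (50.7 TPM) and Hrk (50.3 TPM) were the most abundant, followed by Bid (16.8 TPM) and Bbc3 (Puma, 11.5 TPM). Bcl2l11 (Bim) stood at 2.93 TPM, Bmf at 1.15 TPM, Pmaip1 (Noxa) at 0.947 TPM and Bik at or near 0. The initiator caspase 9 (21.3 TPM) was more abundant than caspase 8 (1.98 TPM), with Casp2 at 7.92 TPM and the effector Casp6 at 4.71 TPM. The mean coverage of Casp8 was low, at 0.317 to 1.36 reads per base across the libraries. Of the inhibitors, Xiap, which binds and blocks caspases 3, 7 and 9, averaged 41.6 TPM, Birc2 28.4 TPM and Birc3 1.05 TPM, and Diablo, which displaces them from caspases, averaged 25.5 TPM.

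The receptor side was lower. Tnfrsf1a, the main receptor for tumor necrosis factor, averaged 10.7 TPM, Tnfrsf1b 2.88 TPM, Fas 1.68 TPM and Tnfrsf10b, the TRAIL receptor, 0.536 TPM. The adaptors Tradd, Ripk1 and Fadd averaged 7.41, 3.87 and 2.06 TPM. Cflar, the inhibitor of caspase 8, averaged 12.5 TPM, and was lowest in p16 WT CTL replicate 1 (7.76 TPM). The coefficient of variation across the 16 libraries ran from 3.30% (Bcl2l1) to 41.4% (Pmaip1), with a median of 14.7% over the 32 members without Bik, beside 14.6% over all 17317 tested genes.

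**Figure D1:**
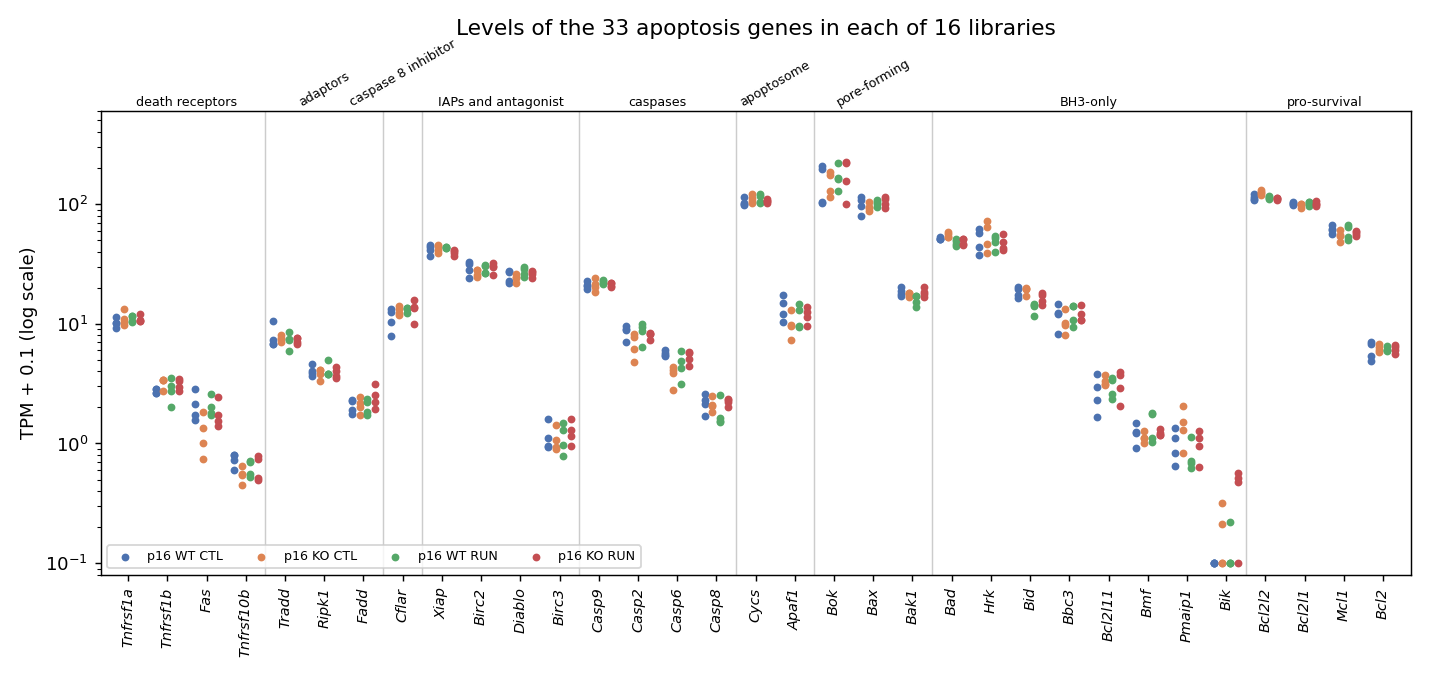
Level of each of the 33 genes in each of the 16 libraries, as TPM + 0.1 on a log axis, grouped by role; each point is 1 library and the colour is its group. Bok, Bcl2l2, Cycs, Bcl2l1 and Bax have the highest means (99.7 to 162 TPM), whereas Bik is listed at 0 in most libraries.

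Running was first compared over both genotypes in an additive fit of all 16 libraries with genotype as a covariate, where a gene is called at an unadjusted p under 0.05, the threshold of the study, or at an adjusted p under 0.05. Bid, Bad and Bcl2l2 were lower in runners, and no member was higher. These 3 of 33 members (9.09%) stand beside 17.5% of all 17317 genes called in either direction, 9.61% higher and 7.88% lower, so in all 16 libraries the members were not called more often than genes at large. Bid alone passed the adjusted threshold, as did 0.797% of all genes (138 genes, and 37 to 244 when 1 library was left out, lowest without p16 KO RUN replicate 14 and highest without p16 WT CTL replicate 3). The median log2 fold change was -0.01 over the members and 0.01 over all genes. Without the 3 sedentary libraries the share over all genes fell, with 1511 of 17317 called in place of 3030. Bid and Bad (lower) and Tnfrsf1a (higher) were then the members called.

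Bid, whose caspase 8 fragment carries the death receptor signal to mitochondria, lies on the minus strand of chromosome 6 (120893119 to 120916820, mm10). It was at 20.1, 19.4, 16.4 and 17.4 TPM in p16 WT CTL and at 14.6, 14.4, 11.6 and 13.9 TPM in p16 WT RUN. In p16 KO CTL it was at 19.4, 16.9, 20.0 and 19.6 TPM, and in p16 KO RUN at 18.0, 14.1, 17.3 and 15.3 TPM. All 4 wild-type runner libraries lay under all 4 wild-type sedentary ones. In the knockout, replicates 13 and 15 of the runners overlapped the lowest sedentary library in TPM as deposited, but not after the libraries were scaled to a common median, where the runners reached 17.7 and the sedentary libraries began at 17.9. TPM values per library are given as deposited throughout, whereas all tests used the scaled values. The log2 fold change with running over both genotypes was -0.37 (SE 0.08, 95% confidence interval -0.53 to -0.21, limma unadjusted p = 0.000171, adjusted p = 0.0356), a level 22.5% lower, and an exact permutation of the running labels within each genotype gave p = 0.000408. Without the 3 sedentary libraries the log2 fold change was -0.35 (adjusted p = 0.190, where no gene passed the adjusted threshold), and over the 25 alternatives the limma adjusted p ran from 0.0244 to 0.190, under 0.05 in 15. It was over 0.05 without p16 WT CTL replicate 1 or 2, p16 KO CTL replicate 7 or 8, p16 WT RUN replicate 10 or 12, or p16 KO RUN replicate 14 or 16 (0.0622 to 0.0869), and 0.0531 with no variance trend. In the same comparison 2 of 9 granule neuron markers and 3 of 8 endothelium markers were called higher, and 3 of 6 astrocyte, 4 of 9 microglia and 2 of 6 CA2 and CA3 pyramidal neuron markers lower. Also called were 2 of 6 interneuron markers (higher), 1 of 8 choroid plexus markers (lower), 1 of 7 nuclear noncoding RNAs (higher) and 4 of 6 meninges and fibroblast markers (2 in each direction). Of the 13 marker lists Bid followed the CA2 and CA3 list most closely across the 16 libraries (Pearson r = 0.645, permutation p = 0.00705, adjusted p = 0.0863; Spearman rho = 0.629, permutation p = 0.00998, adjusted p = 0.143), with r = 0.769 without the 2 libraries farthest from the median marker level and 0.733 within groups. The part of these markers in the result was not tested.

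Bad, a BH3-only protein that survival kinases hold inactive by phosphorylation, lies on chromosome 19 (6941861 to 6951905) and measured 50.5, 50.7, 52.5 and 50.9 TPM in p16 WT CTL against 49.0, 50.6, 46.6 and 44.4 TPM in p16 WT RUN. In the knockout it measured 53.4, 56.1, 58.6 and 53.0 TPM in sedentary and 45.6, 50.9, 46.4 and 51.4 TPM in running mice. The knockout groups did not overlap, and the wild-type groups overlapped by 1 runner library. Its log2 fold change with running was -0.18 (SE 0.05, limma unadjusted p = 0.00186, adjusted p = 0.0925, exact permutation p = 0.00163), and -0.12 (unadjusted p = 0.0209) without the 3 sedentary libraries. The adjusted p ran from 0.0683 to 0.459 over the alternatives.

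Bcl2l2, the most abundant pro-survival member, lies on chromosome 14 (54883425 to 54888234) and fell by 0.13 on the log2 scale with running (SE 0.05, limma unadjusted p = 0.0304, adjusted p = 0.238, exact permutation p = 0.0424). Without the 3 sedentary libraries the log2 fold change was -0.04, and the call was also lost without any single one of p16 WT CTL replicate 2, p16 KO CTL replicates 6 and 7 and p16 KO RUN replicates 13 and 16 (-0.12 to -0.09).

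For the 3 genes that were lower in runners, all called in the same direction, a window of 250 bases before a listed start (GRCm38.p6) is printed. It runs 5′ to 3′ in lower case, with each GC box (GGGCGG on either strand, a motif bound by Sp1) in capitals. Bid is at chr6:120916825-120917074 (minus strand), Bad at chr19:6941611-6941860 (plus strand, the first of 2 listed starts) and Bcl2l2 at chr14:54883175-54883424 (plus strand). RefSeq extends the Bid gene to 120917062 and begins Bcl2l2 at 54883366, so the windows of Bid and Bcl2l2 lie partly inside the listed gene.
Bid: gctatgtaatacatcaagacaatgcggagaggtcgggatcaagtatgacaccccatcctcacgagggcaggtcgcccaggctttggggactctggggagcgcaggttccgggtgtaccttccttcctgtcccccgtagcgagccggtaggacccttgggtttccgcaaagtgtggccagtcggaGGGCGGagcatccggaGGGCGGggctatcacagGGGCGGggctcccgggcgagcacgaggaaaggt
Bad: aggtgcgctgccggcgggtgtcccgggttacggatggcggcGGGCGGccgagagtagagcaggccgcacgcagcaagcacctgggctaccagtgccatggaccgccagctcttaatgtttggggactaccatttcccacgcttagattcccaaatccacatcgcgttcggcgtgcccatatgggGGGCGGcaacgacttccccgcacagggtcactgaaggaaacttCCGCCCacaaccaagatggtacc
Bcl2l2: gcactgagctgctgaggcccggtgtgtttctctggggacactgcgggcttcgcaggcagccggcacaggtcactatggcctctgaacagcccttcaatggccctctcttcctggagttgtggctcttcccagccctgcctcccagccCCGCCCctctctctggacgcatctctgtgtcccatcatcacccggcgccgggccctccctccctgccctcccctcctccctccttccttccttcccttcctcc
Bid and Bad held 3 GC boxes each and Bcl2l2 held 1. None of the 3 windows held, on either strand, any of the other motifs searched. RefSeq listed 41 promoters for 29 of the 33 members, of which 26 (63.4%) held a GC box, beside 32.7% of all 32851 promoter windows of 250 bases. The TATA box, spelled TATAAA, was in 2 of the 41 (4.88%) beside 12.4% of all, and the box spelled CCAAT was in 10 (24.4%) beside 33.9%. The cAMP response element, spelled TGACGTCA, was in 2 (4.88%) beside 1.55% of all. The E-box, spelled CACGTG, was in 3 (7.32%) beside 6.02% of all. These matches describe letters in a window and not bound sites.

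The study's pairwise comparisons separate the genotypes. In Set C (p16 WT RUN against p16 WT CTL), 2 of 33 members (6.06%) were called, Bid and Bak1, both lower in runners. In all, 4.77% of 17314 genes were called, 2.68% higher and 2.09% lower, and no gene passed the adjusted threshold (0%; 826 genes had an unadjusted p under 0.05 with limma). Leaving out p16 WT CTL replicate 2, 3 or 4 let 2 genes pass it. In the same comparison 1 of 9 granule neuron, 1 of 5 CA1, 1 of 6 interneuron and 1 of 5 mural cell markers were called higher and none lower, and their part in the result was not tested. Bid fell by 0.44 on the log2 scale (SE 0.12, limma unadjusted p = 0.00441, adjusted p = 0.925, exact permutation p = 0.0286, the smallest that 4 against 4 libraries allow), and by 0.39 (p = 0.0125) without p16 WT CTL replicate 2.

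Bak1, with Bax one of the pair of proteins that open the mitochondrial outer membrane, lies on chromosome 17 (27019812 to 27028626). It was at 20.0, 17.6, 18.8 and 17.0 TPM in p16 WT CTL, at 13.7, 16.9, 15.1 and 17.1 TPM in p16 WT RUN, at 17.9, 16.8, 17.7 and 18.0 TPM in p16 KO CTL and at 18.2, 16.7, 17.8 and 20.1 TPM in p16 KO RUN. Only p16 WT RUN held libraries under 16 TPM. Its log2 fold change in Set C was -0.24 (SE 0.10, limma unadjusted p = 0.0442, adjusted p = 0.987, exact permutation p = 0.0857). The call was lost without any one of p16 WT CTL replicates 1, 2 and 3 and p16 WT RUN replicates 9 and 11 (-0.24 to -0.17), with quantile normalization and with no variance trend.

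In Set A (p16 KO RUN against p16 KO CTL), 5 of 33 members (15.2%) were called, with Bcl2l2, Bad, Bid and Xiap lower and Casp6 higher. Over all 17311 genes 18.5% were called, 10.8% higher and 7.71% lower, and 0.0173% (3 genes) passed the adjusted threshold. That number was 272 when p16 KO CTL replicate 5 was left out, 10 and 9 for p16 KO RUN replicates 13 and 14, and 0 without any one of p16 KO CTL replicates 6, 7 and 8 and p16 KO RUN replicates 15 and 16. With TPM as deposited, without scaling, 77.9% of the called genes were higher in place of 58.3%, and the median of all genes moved from 0.02 to 0.08 on the log2 scale. Under that scaling Xiap was no longer called, and 4 members were, beside 3207 of all 17311 genes. Without p16 KO CTL replicates 6 and 7, 4 members (Bcl2l2, Bid, Casp6 and Apaf1) and 1464 genes were called.

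Bcl2l2 was at 119, 125, 132 and 123 TPM in p16 KO CTL and at 112, 111, 112 and 107 TPM in p16 KO RUN, with no overlap, whereas p16 WT CTL (115, 121, 109 and 110 TPM) and p16 WT RUN (117, 112, 110 and 115 TPM) overlapped. The log2 fold change in Set A was -0.24 (SE 0.07, limma unadjusted p = 0.00506, adjusted p = 0.168, exact permutation p = 0.0286), and -0.15 (p = 0.0345) without p16 KO CTL replicates 6 and 7. Bid fell by 0.30 (SE 0.10, limma unadjusted p = 0.0121, adjusted p = 0.205, exact permutation p = 0.0286) and by 0.29 (p = 0.0309) without those 2 libraries. Bad fell by 0.25 (SE 0.08, limma unadjusted p = 0.00945, adjusted p = 0.193, exact permutation p = 0.0286), and without those 2 libraries its value was -0.15 (p = 0.0867), which is not called.

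Casp6, an effector caspase, lies on chromosome 3 (129901415 to 129914112) and was the member called in the upward direction. It was at 3.76, 4.23, 2.69 and 3.97 TPM in p16 KO CTL and at 5.66, 5.00, 5.67 and 4.37 TPM in p16 KO RUN. In p16 WT CTL it was at 5.90, 5.56, 5.39 and 5.28 TPM and in p16 WT RUN at 4.80, 4.18, 5.86 and 3.07 TPM. The sedentary knockout libraries were all under those of the sedentary wild type, and the wild-type runners spanned nearly the whole range. They were also all under the knockout runners in TPM as deposited, but in the scaled values p16 KO CTL replicate 6 (4.49) exceeded p16 KO RUN replicate 16 (4.29). The log2 fold change in Set A was 0.44 (SE 0.17, limma unadjusted p = 0.0264, adjusted p = 0.235, exact permutation p = 0.0571), and 0.38 (p = 0.0477) without p16 KO CTL replicates 6 and 7. The call was lost without any one of p16 KO CTL replicate 7 and p16 KO RUN replicates 13 and 15 (0.32 to 0.40), and with quantile normalization.

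Xiap, on the X chromosome (42067836 to 42109664), was at 44.6, 45.1, 41.3 and 39.2 TPM in p16 KO CTL and at 40.2, 36.4, 38.8 and 41.0 TPM in p16 KO RUN, and at 43.4, 36.7, 41.4 and 45.1 TPM in p16 WT CTL. In p16 WT RUN it was at 43.9, 42.6, 42.7 and 43.5 TPM, the narrowest group and above every knockout runner. The knockout groups overlapped in TPM as deposited and did not in the scaled values (at least 40.27 in sedentary and at most 40.23 in running mice). Its log2 fold change in Set A was -0.19 (SE 0.07, limma unadjusted p = 0.0192, adjusted p = 0.221, exact permutation p = 0.0286), and -0.12 (p = 0.135) without p16 KO CTL replicates 6 and 7. The call was also lost without p16 KO CTL replicate 6 or p16 KO RUN replicate 14 alone (-0.16 to -0.15).

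**Figure D2:**
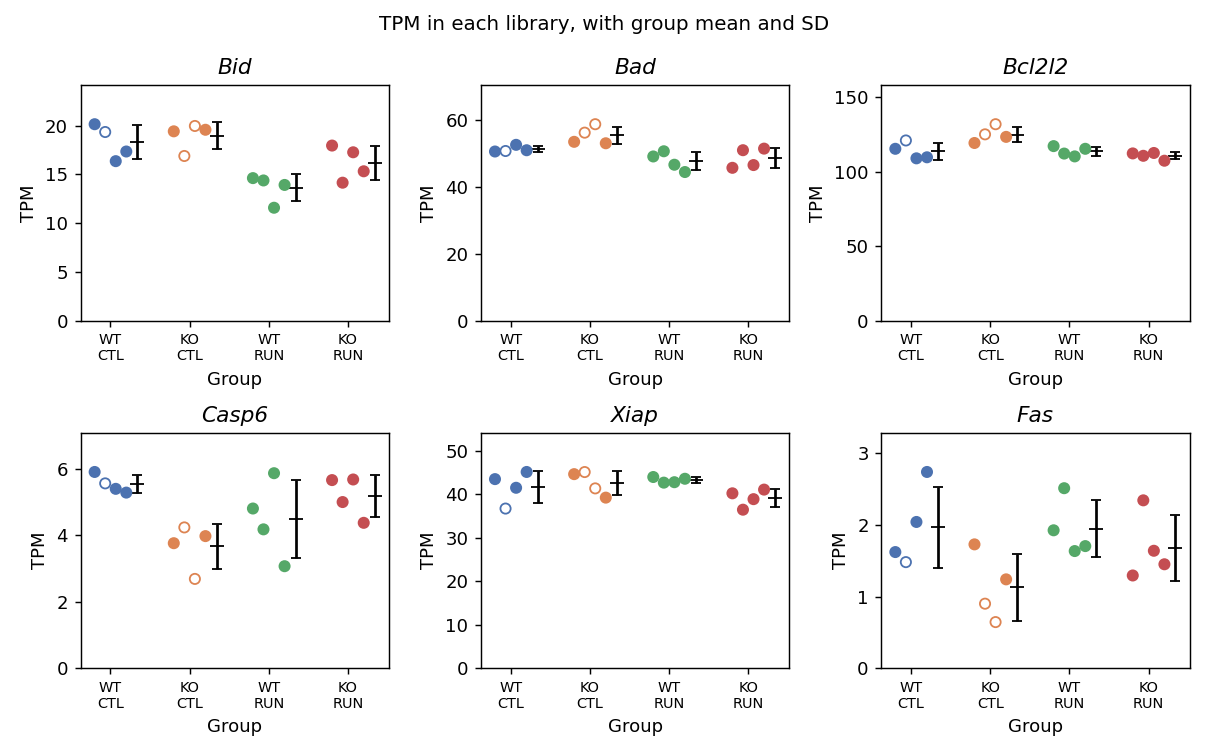
TPM of Bid, Bad, Bcl2l2, Casp6, Xiap and Fas in each library by group, with the group mean and SD (n = 4) as a dash with bars; open circles are the 3 sedentary libraries low in nuclear noncoding RNA (p16 WT CTL replicate 2, p16 KO CTL replicates 6 and 7). Bid lies at 11.6 to 14.6 TPM in p16 WT RUN and at 16.4 to 20.1 TPM in p16 WT CTL, and Casp6 is lowest in p16 KO CTL.

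Set B asks what the loss of p16 does in sedentary mice, setting the p16 KO CTL libraries against the wild-type ones. Here 4 of 33 members (12.1%) were called, Bad and Bcl2l2 higher and Casp6 and Fas lower. Over all 17312 genes 6.65% were called, 3.14% higher and 3.51% lower, and no gene passed the adjusted threshold (0%; 1152 genes had an unadjusted p under 0.05 with limma). When 1 library was left out, 5 genes passed it if that was replicate 8 of p16 KO CTL, 3 if replicate 4 and 1 if replicate 2 of p16 WT CTL, and 2 passed with no variance trend. Without the 3 sedentary libraries Casp6, Apaf1, Bik (at or near 0) and 1184 of all genes were called, 2 of the genes past the adjusted threshold. With TPM as deposited 30.2% of the called genes were higher in place of 47.2%. Sets A and B share the p16 KO CTL libraries, and Sets B, C and D share the p16 WT CTL libraries. Likewise Sets C and E share the p16 WT RUN libraries, and Sets A, D and E share the p16 KO RUN libraries. The log2 fold changes in Sets A and B were -0.25 and 0.17 for Bad, -0.24 and 0.20 for Bcl2l2, and 0.44 and -0.54 for Casp6. Casp6 was 31.3% lower in p16 KO CTL (log2 fold change -0.54, SE 0.16, limma unadjusted p = 0.00706, adjusted p = 0.625, exact permutation p = 0.0286). It kept its call without the 3 sedentary libraries (-0.46) and without any single library (-0.62 to -0.42).

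Fas, on chromosome 19 (34290659 to 34327770), was at 1.62, 1.48, 2.04 and 2.73 TPM in p16 WT CTL and at 1.73, 0.900, 0.644 and 1.24 TPM in p16 KO CTL, so the groups overlapped. The lowest pair of Fas values among all 16 libraries was that of p16 KO CTL replicates 6 and 7. Its log2 fold change in Set B was -0.74 (SE 0.29, limma unadjusted p = 0.0326, adjusted p = 0.625, exact permutation p = 0.0857), and -0.45 (p = 0.174), not called, without the 3 sedentary libraries. The call was also lost without any one of p16 WT CTL replicates 3 and 4 and p16 KO CTL replicates 6 and 7 (-0.72 to -0.54). In runners Fas was at 1.92, 2.51, 1.63 and 1.70 TPM in the wild type and at 1.29, 2.34, 1.64 and 1.45 TPM in the knockout.

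Bad was higher in p16 KO CTL by 0.17 (SE 0.07, limma unadjusted p = 0.0398, adjusted p = 0.625, exact permutation p = 0.0571), and by 0.09 (p = 0.218) without the 3 sedentary libraries. Bcl2l2 was higher by 0.20 (SE 0.08, limma unadjusted p = 0.0407, adjusted p = 0.625, exact permutation p = 0.0571), and by 0.16 (p = 0.0649) without them. Neither was called without them or with no variance trend, and Bad was also not called with TPM as deposited. In Set B 2 of 6 astrocyte, 2 of 9 microglia, 2 of 6 interneuron, 1 of 5 CA1 and 1 of 6 CA2 and CA3 markers were called higher and no marker lower, with a median log2 fold change of -0.91 over the 7 nuclear noncoding RNAs. Across the 16 libraries Bad followed the microglia markers (Pearson r = 0.661, permutation p = 0.00528, adjusted p = 0.0757; Spearman rho = 0.476, permutation p = 0.0643, adjusted p = 0.399), but r was 0.283 without p16 KO CTL replicates 6 and 7, so the relation rests on those libraries. It ran inversely to the endothelium markers (Pearson r = -0.630, permutation p = 0.00848, adjusted p = 0.0882; Spearman rho = -0.362, permutation p = 0.170, adjusted p = 0.603) and the mural cell markers (Pearson r = -0.595, permutation p = 0.0148, adjusted p = 0.120; Spearman rho = -0.368, permutation p = 0.163, adjusted p = 0.586), again on the same libraries, with r = -0.152 and -0.241 without them. Its closest list was that of the nuclear noncoding RNAs, where the 3 sedentary libraries form a cluster of their own. Within the other 13 libraries r was -0.240 (permutation p = 0.427) and rho -0.187 (permutation p = 0.540), with r = -0.417 without the 2 farthest libraries. The part of these markers in the Set B values was not tested. Bad lost its call without any one of replicates 1, 3 and 4 of p16 WT CTL and 6 and 7 of p16 KO CTL (0.12 to 0.17). Bcl2l2 lost it without any one of replicates 1, 3 and 4 of p16 WT CTL and 6, 7 and 8 of p16 KO CTL (0.15 to 0.21).

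In Set E (p16 KO RUN against p16 WT RUN), which holds none of the 3 sedentary libraries, 3 of 32 members (9.38%) were called, Bid and Bak1 higher and Xiap lower in the knockout. Bik is left out of this count because it passed the filter on low values through p16 KO RUN. Over all 17314 genes 3.85% were called, 2.09% higher and 1.76% lower, and 0.00578% (1 gene) passed the adjusted threshold (2 genes without p16 WT RUN replicate 10 or 11 or p16 KO RUN replicate 16). In Set E 1 of 5 CA1, 1 of 6 CA2 and CA3, 1 of 6 astrocyte and 1 of 5 mural cell markers were called lower, and 1 of 9 microglia, 1 of 8 endothelium and 1 of 8 choroid plexus markers higher. The part of these markers was not tested. Xiap did not overlap between the groups (log2 fold change -0.14, SE 0.05, limma unadjusted p = 0.0155, adjusted p = 1.00, exact permutation p = 0.0286), and stayed called when any single library was left out (-0.15 to -0.11). Bid was 19.2% higher (log2 fold change 0.25, SE 0.11, limma unadjusted p = 0.0395, adjusted p = 1.00, exact permutation p = 0.0571) and Bak1 16.5% higher (0.22, SE 0.09, limma unadjusted p = 0.0427, adjusted p = 1.00, exact permutation p = 0.0857). Bid lost its call without any one of p16 WT RUN replicates 11 and 12 and p16 KO RUN replicates 13 and 15 (0.17 to 0.27). Bak1 lost it without any one of p16 WT RUN replicates 9 and 11 and p16 KO RUN replicates 13, 15 and 16 (0.15 to 0.23), and with no variance trend.

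Bik, a BH3-only gene on chromosome 15 (83526862 to 83544635), was at or near 0. It was listed at 0 in all 4 libraries of p16 WT CTL, at 0.221, 0, 0 and 0.114 TPM in p16 KO CTL, at 0, 0, 0 and 0.123 TPM in p16 WT RUN and at 0.417, 0, 0.468 and 0.376 TPM in p16 KO RUN. Its mean coverage was at most 1.21 reads per base in any library. It passed the filter on low values through the knockout runners, so a difference in comparisons with that group depends on the filter. It is therefore given by its values, with no fold and no test. In Set D (p16 KO RUN against p16 WT CTL) none of the other 32 members had an unadjusted limma p under 0.05, although Xiap did (-0.13 in place of -0.09, limma adjusted p = 0.437) once replicate 2 of the sedentary wild type was left out. In Set D 8.55% of 17310 genes were called, 4.94% higher and 3.61% lower, and no gene passed the adjusted threshold (0%; 1480 genes had an unadjusted p under 0.05 with limma). It was passed by 3 genes without p16 WT CTL replicate 4, by 2 without p16 KO RUN replicate 13 or 15 and by 1 without p16 WT CTL replicate 2 or 3 or p16 KO RUN replicate 14. The log2 fold changes of the other 32 members in Set D lay between -0.24 and 0.28, and 30 of them within 0.25 of 0. In that set 77.2% of all genes lay within 0.25 of 0.

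Whether running acted differently in the genotypes was tested by the interaction term in all 16 libraries. There 3 of 33 members (9.09%) were called, Casp6 higher and Xiap and Bcl2l2 lower, beside 5.48% of 17317 genes, 2.95% higher and 2.54% lower, with no gene past the adjusted threshold (0%; 949 genes had an unadjusted p under 0.05 with limma). The adjusted threshold was passed by 1 gene when p16 WT CTL replicate 4 was left out, and without the 3 sedentary libraries 3 members (Casp6, Bcl2l2 and Apaf1) and 1255 genes were called. Casp6 had a log2 fold change with running of 0.44 in the knockout and -0.35 in the wild type, where it was not called, a difference of 0.78 (SE 0.25, 95% confidence interval 0.26 to 1.31, n = 16 libraries, limma unadjusted p = 0.00621, adjusted p = 0.797). It was called under all 25 alternatives (0.71, without the 3 sedentary libraries). For Xiap the values were -0.19 and 0.04 (difference -0.23, SE 0.08, n = 16 libraries, limma unadjusted p = 0.0145, adjusted p = 0.797). The Xiap difference was -0.12, not called, without the 3 sedentary libraries, and was not called with TPM as deposited. For Bcl2l2 they were -0.24 and -0.01 (difference -0.23, SE 0.09, n = 16 libraries, limma unadjusted p = 0.0259, adjusted p = 0.797), and the difference was -0.19, still called, without the 3 sedentary libraries. The Bcl2l2 difference lost its call without any one of p16 WT CTL replicates 3 and 4, p16 KO CTL replicate 7 and p16 KO RUN replicate 16 (-0.21 to -0.18). In the interaction 2 of 5 CA1, 1 of 6 CA2 and CA3, 1 of 6 interneuron and 1 of 6 astrocyte markers were called lower and no marker higher. The median interaction value was -0.56 over the 6 oligodendrocyte markers, none of them called, and 0.88 over the 7 nuclear noncoding RNAs. The part of these markers in the Casp6, Xiap and Bcl2l2 values was not tested. For Bid the difference was 0.14 (SE 0.15, 95% confidence interval -0.18 to 0.46, limma adjusted p = 0.842), so a difference between the genotypes was not detectable.

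Genotype over both activity groups, with running as a covariate, called 2 of 32 members without Bik (6.25%), Bid higher and Fas lower in the knockout, beside 6.94% of 17317 genes, 3.8% higher and 3.14% lower. No gene passed the adjusted threshold (0%; 1202 genes had an unadjusted p under 0.05 with limma). It was passed by 4 genes without p16 WT RUN replicate 12 and by 2 without p16 WT CTL replicate 2. Without the 3 sedentary libraries 882 genes were called and 2 passed the adjusted threshold, and among the members Xiap was called lower (-0.09 in place of -0.02, limma adjusted p = 0.894) and Fas was not called. Called higher were 2 of 9 microglia, 1 of 6 interneuron and 1 of 8 choroid plexus markers, with none lower, and their part in the result was not tested. With TPM as deposited 35.5% of the called genes were higher in place of 54.7%, and Bid was no longer called. Bid was 13.6% higher (log2 fold change 0.18, SE 0.08, limma unadjusted p = 0.0274, adjusted p = 0.696, exact permutation p = 0.0306), and 0.22 (p = 0.0174) without the 3 sedentary libraries. It lost its call without any one of p16 WT CTL replicate 3, p16 KO CTL replicate 7, p16 WT RUN replicate 11 and p16 KO RUN replicates 13 and 15 (0.14 to 0.17). Fas was 27.9% lower (log2 fold change -0.47, SE 0.20, limma unadjusted p = 0.0278, adjusted p = 0.696, exact permutation p = 0.0327), and -0.30 (p = 0.122) without the 3 sedentary libraries. It lost its call without any one of p16 WT CTL replicate 4, p16 KO CTL replicates 6 and 7 and p16 WT RUN replicate 10 (-0.43 to -0.36).

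**Figure D3:**
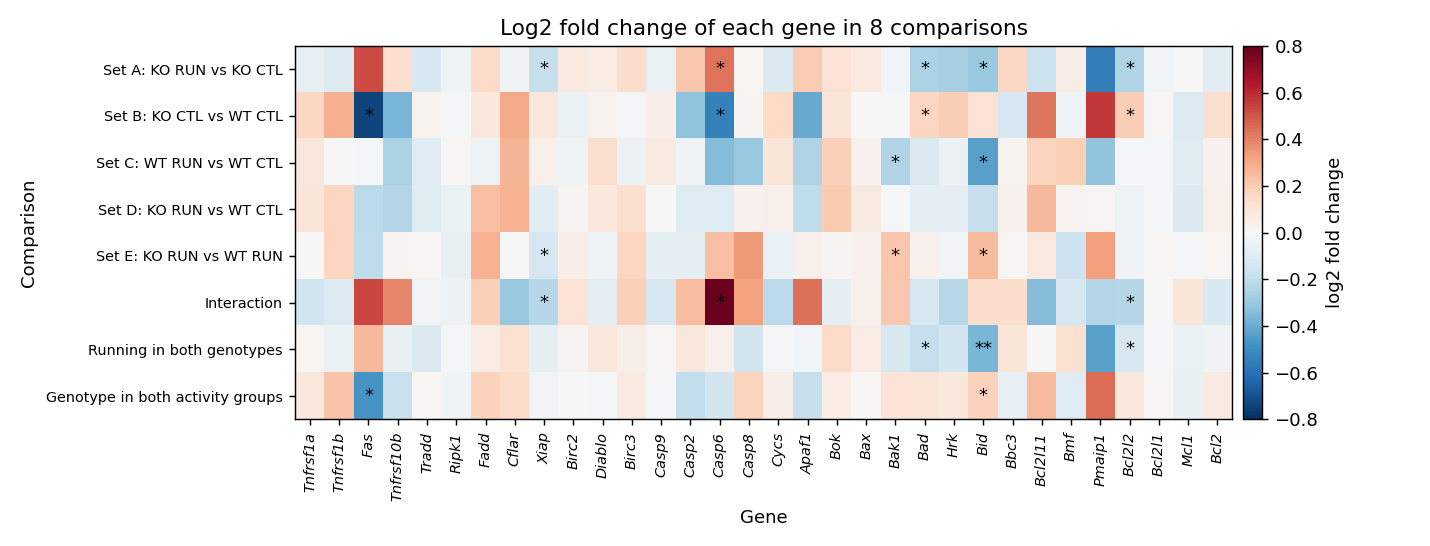
Log2 fold change (colour) of 32 genes in the 8 comparisons, in the order of roles used for the levels; 1 asterisk marks an unadjusted p under 0.05 and a double asterisk an adjusted p under 0.05. Bid with running in both genotypes (-0.37) is the single pair with a double asterisk, and Casp6 has the highest interaction value (0.78); Bik is left out because it is listed at 0 in most libraries.

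The remaining 25 members had no unadjusted limma p under 0.05 in any comparison of all its libraries. These were 3 of the 4 death receptors (Tnfrsf1a, Tnfrsf1b and Tnfrsf10b), all 3 adaptors, Cflar, Birc2, Birc3 and Diablo, Casp2, Casp8 and Casp9, both apoptosome components, Bax and Bok, and Bcl2, Bcl2l1 and Mcl1. The BH3-only genes Bmf, Hrk, Bbc3, Pmaip1 and Bcl2l11 gave none either. Of these 25, Apaf1, Cflar and Tnfrsf1a were called with the 3 sedentary libraries left out. Apaf1 then had a log2 fold change of 0.46 in Set A, -0.77 in Set B and 0.80 in the interaction (limma adjusted p = 0.556, 0.667 and 0.639), in place of 0.20, -0.40 and 0.44. Cflar had 0.40 in Set C in place of 0.27 (limma adjusted p = 0.790), and Tnfrsf1a had 0.14 with running over both genotypes in place of 0.01 (limma adjusted p = 0.565). Tnfrsf1b was 17.2% higher in the knockout over both activity groups, at a limma unadjusted p = 0.0659 (adjusted p = 0.696) and an exact permutation p = 0.0453, so the tests fell on either side of 0.05. In Set B its log2 fold change was 0.28 (SE 0.15, limma unadjusted p = 0.0968, adjusted p = 0.625, exact permutation p = 0.0571). The Tnfrsf1b values were 0.19 over both activity groups and 0.20 in Set B without the 3 sedentary libraries. Pmaip1 had wide values without a call, such as a log2 fold change of 0.56 in Set B (SE 0.36, limma adjusted p = 0.625) and -0.43 with running over both genotypes (SE 0.23, limma adjusted p = 0.339), and these were 0.75 and -0.31 without the 3 sedentary libraries. Over the 32 members without Bik, the log2 fold change was within 0.25 of 0 in 23 in Set B, 26 in each of Sets A and C, and 28 in Set E. The same held for 71.2% of all genes in Set B, 66.2% in Set A, 79.9% in Set C and 82.6% in Set E.

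Of 56 other genes of the pathway (ligands, further receptors and adaptors, caspases, inhibitors and Bcl2 relatives), 52 were tested. With running over both genotypes, 12 of the 51 that averaged at least 0.1 TPM in both sedentary and running mice (23.5%) were called, 5 higher and 7 lower, and 2 passed the adjusted threshold, beside 17.5% of all genes called (9.61% higher, 7.88% lower) and 0.797% adjusted. The shares over all genes used only the filter on the mean over all libraries. Faim2, an inhibitor of Fas-induced death in neurons, had medians of 368 and 347 TPM in sedentary wild-type and knockout mice and of 326 and 323 TPM in runners (log2 fold change -0.19, SE 0.03, limma adjusted p = 0.0176). Parp1, the DNA repair enzyme cleaved by caspases, had medians of 93.7 and 89.0 TPM in sedentary and 113 and 106 TPM in running mice (0.20, SE 0.04, limma adjusted p = 0.0473). Pea15a, a death effector domain protein that inhibits Fas signalling, fell by 0.23 (SE 0.06, limma adjusted p = 0.0738). Without the 3 sedentary libraries 3 of the 12 were still called and no other gene of the list was, with Faim2 at -0.20 (adjusted p = 0.133), Parp1 at 0.17 (adjusted p = 0.337) and Pea15a at -0.13 (adjusted p = 0.350). The adjusted p was under 0.05 in 22 of 25 alternatives for Faim2 (0.0123 to 0.133) and in 10 of 25 for Parp1 (0.0240 to 0.337).

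In Set A 11 of the 49 that averaged at least 0.1 TPM in both groups (22.4%) were called, 4 higher and 7 lower. Beside them stand 18.5% of all genes, filtered on the overall mean alone. Ripk3, the kinase of necroptosis, passed the filter on low values through the runners (0.172 TPM on average, beside 0.0496 TPM in sedentary mice), so it is left out of both counts. They were led by Faim2 (-0.20, SE 0.05), Ngfr, the p75 neurotrophin receptor (-1.01, SE 0.30), and Pea15a (-0.30, SE 0.09). Without p16 KO CTL replicates 6 and 7 only 2 of the 52 were called, of which Faim2 (-0.20) was 1 of the 11, and neither Ngfr (-0.79, SE 0.38) nor Pea15a (-0.15, SE 0.07) was called. Ngfr had a median of 1.38 TPM in p16 KO CTL and 0.632 TPM in p16 KO RUN, beside 0.890 and 0.803 TPM in p16 WT CTL and p16 WT RUN, and was the single pathway gene called in the interaction (-1.05, SE 0.38), 1.92% of the list beside 5.48% of all genes. Its interaction value was -0.75 (SE 0.45), not called, without the 3 sedentary libraries, where 3 other pathway genes were called. In Set B 4 (7.69%, beside 6.65% of all genes) were called, 2 higher and 2 lower, led by Ngfr (0.58, SE 0.23), Sharpin, a subunit of the linear ubiquitin ligase (-0.17, SE 0.07), and Htra2, a mitochondrial protease (-0.23, SE 0.10). Sharpin (-0.23) and Htra2 (-0.24) were the 2 called without the 3 sedentary libraries, and Ngfr was then at 0.28 (SE 0.29). In Set C 4 (7.69%, beside 4.77%) were called, 1 higher and 3 lower, led by Parp1 (0.23, SE 0.06), Faim2 (-0.18, SE 0.06) and the adaptor Traf1 (-1.14, SE 0.40), of which Parp1 (0.22) and Faim2 (-0.20) were still called once replicate 2 of p16 WT CTL was left out. In Set D 3 (5.77%, beside 8.55%) were called, all lower, namely Faim2 (-0.22, SE 0.05), the adaptor Traf2 (-0.22, SE 0.09) and Pea15a (-0.17, SE 0.07), of which Faim2 (-0.23) was still called in that case. In Set E none was called (limma, at an unadjusted p under 0.05), beside 3.85% of all genes. With genotype over both activity groups 3 (5.77%, beside 6.94%) were called, all lower, namely Sharpin (-0.12, SE 0.05), Pidd1, which activates caspase 2 (-0.36, SE 0.16), and Birc6 (-0.19, SE 0.09). Sharpin (-0.13) and Birc6 (-0.11) were still called without the 3 sedentary libraries and Pidd1 (-0.29, SE 0.17) was not. Of the 5 ligand genes listed, Fasl lay at 0 to 0.170 TPM, Tnf at 0 to 0.361 TPM and Lta at 0 to 0.467 TPM across the libraries, with Tnfsf10 (TRAIL) at 0.424 to 1.22 TPM and Tnfsf12 (TWEAK) highest at 8.40 to 14.1 TPM. Apart from Faim2 and Parp1 with running over both genotypes, no called gene of this list passed the adjusted threshold.

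Several members varied within groups together with the cell type markers. Bok was at 197, 209, 101 and 103 TPM in p16 WT CTL, at 114, 128, 176 and 186 TPM in p16 KO CTL, at 166, 218, 129 and 162 TPM in p16 WT RUN and at 155, 225, 222 and 101 TPM in p16 KO RUN. Every group thus held both low and high Bok libraries. Of 416 relations between 32 members and 13 marker lists across the 16 libraries, 18 had a permutation p of Pearson's r under 0.05 after Benjamini and Hochberg adjustment, and those named here were chosen after their values were seen. Bok followed the summed level of 9 granule neuron markers inversely (Pearson r = -0.702, permutation p = 0.00176, adjusted p = 0.0458; Spearman rho = -0.818, permutation p = 0.00018, adjusted p = 0.0125). Without the 2 libraries farthest from the median marker level r was -0.808, and it was -0.844 after the group means were subtracted.

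Bbc3 followed the granule neuron markers directly (r = 0.907, rho = 0.885, both at a permutation p of 1e-05, the smallest that 100000 permutations can give, adjusted p = 0.00416). Without the 2 farthest libraries r was 0.841, and it was 0.892 within groups. Bax did so as well (r = 0.794, permutation p = 0.00025, adjusted p = 0.0166; rho = 0.753, permutation p = 0.0012, adjusted p = 0.0397), with r = 0.668 without the 2 farthest libraries and 0.774 within groups. Both genes also ran inversely to other lists. For Bbc3 the oligodendrocyte markers gave r = -0.818 (permutation p = 0.0001, adjusted p = 0.0139) and rho = -0.835 (permutation p = 9e-05, adjusted p = 0.0125), with r = -0.749 without the 2 farthest libraries and -0.813 within groups. The interneuron markers gave r = -0.778 (permutation p = 0.00026, adjusted p = 0.0166) and rho = -0.721 (permutation p = 0.00238, adjusted p = 0.0582) for Bbc3, with r = -0.662 without the 2 farthest libraries and -0.798 within groups. For Bax the closest list was that of the interneurons (r = -0.845, permutation p = 0.0001, adjusted p = 0.0139; rho = -0.697, permutation p = 0.0036, adjusted p = 0.0713), with r = -0.716 without the 2 farthest libraries and -0.867 within groups. The CA2 and CA3 markers gave r = -0.762 (permutation p = 0.00064, adjusted p = 0.0266) and rho = -0.735 (permutation p = 0.00178, adjusted p = 0.0489) for Bax, with r = -0.734 without the 2 farthest libraries and -0.789 within groups. Its values with the oligodendrocyte markers were r = -0.759 (permutation p = 0.00064, adjusted p = 0.0266) and rho = -0.759 (permutation p = 0.00118, adjusted p = 0.0397), with r = -0.730 without the 2 farthest libraries and -0.739 within groups. Pmaip1 followed the 6 oligodendrocyte markers (r = 0.788, permutation p = 0.00017, adjusted p = 0.0166; rho = 0.762, permutation p = 0.00075, adjusted p = 0.0347), with r = 0.663 without the 2 farthest libraries and 0.790 within groups, and ran inversely to the granule neuron markers (r = -0.730, permutation p = 0.00089, adjusted p = 0.0337; rho = -0.762, permutation p = 0.00096, adjusted p = 0.0397; r = -0.723 without the 2 farthest libraries and -0.704 within groups). Bcl2l2 followed the oligodendrocyte markers as well (r = 0.788, permutation p = 0.0003, adjusted p = 0.0166; rho = 0.818, permutation p = 0.00017, adjusted p = 0.0125), with r = 0.664 without the 2 farthest libraries and 0.662 within groups. Of the 18 relations, 4 more were those of Tnfrsf1b and Casp2 with the astrocyte, Birc2 with the oligodendrocyte and Hrk with the granule neuron markers. The last 3 were with the nuclear noncoding RNAs (Fas, Casp2 and Bcl2l2), where the 3 sedentary libraries form a separate cluster, so no value over all 16 libraries is given. Within the other 13 libraries Fas had r = 0.231 (permutation p = 0.442, adjusted over 4 relations, that of Bad included, p = 0.590) and rho = 0.264 (permutation p = 0.382, adjusted p = 0.720), with r = 0.083 without the 2 farthest libraries. There r was -0.141 for Casp2 (rho = -0.0275) and -0.379 for Bcl2l2 (rho = -0.429), at permutation p-values of r of 0.650 and 0.201 and of rho of 0.935 and 0.146. The relation of these genes to the nuclear noncoding RNAs thus rests on the 3 sedentary libraries. All values of a library share its dissection and its TPM total, so that a larger share of 1 cell type lowers the others. The oligodendrocyte markers summed to 1345 to 2273 TPM in p16 KO CTL and to 1035 to 1370 TPM in p16 KO RUN. They summed to 892 to 1904 TPM in p16 WT CTL and to 1128 to 1626 TPM in p16 WT RUN. In Set A 3 of 6 oligodendrocyte, 3 of 6 astrocyte, 3 of 9 microglia, 2 of 6 CA2 and CA3, 2 of 6 interneuron, 1 of 5 CA1 and 1 of 6 meninges and fibroblast markers were called lower, beside the lower Bcl2l2, Bad, Bid and Xiap. Called higher were 2 of 9 granule neuron, 2 of 8 endothelium, 1 of 6 interneuron and 1 of 6 meninges and fibroblast markers and 2 of 7 nuclear noncoding RNAs. Their part in those results was not tested.

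**Figure D4:**
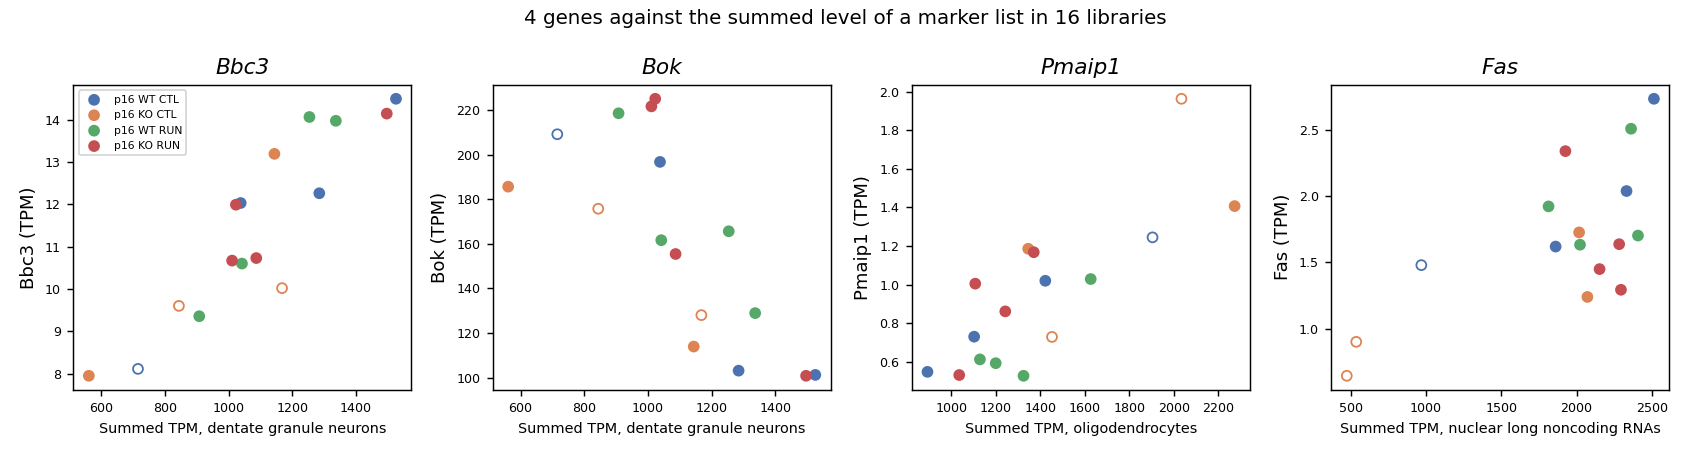
TPM of Bbc3, Bok, Pmaip1 and Fas against the summed TPM of a marker list, 1 point for each of 16 libraries, coloured by group; open circles are the 3 sedentary libraries low in nuclear noncoding RNA. The lowest Bbc3 level (7.95 TPM) is in the library with the fewest granule neuron transcripts (561 TPM), and the lowest Fas levels (0.644 and 0.900 TPM) are in the libraries with 474 and 537 TPM of nuclear noncoding RNA.

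RefSeq places another gene over part of 11 members, a protein-coding one in 7 of them, among them Gpr137 at Bad and Ggnbp1 at Bak1. The library kit keeps the strand per the labels, but whether the abundances were computed by strand is not given in the sources used here, so reads of overlapping genes may be shared.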

How the data were processed

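Dentate gyrus RNA was measured in 16 libraries of 2 pooled mice each, grouped by the labels, with replicate numbers that no groups share. According to the methods and processing notes, the authors demultiplexed with bcl2fastq 2.20, masked adapters with Cutadapt 1.11, trimmed with ERNE, aligned to mm10 with STAR and computed abundances with StringTie. The deposited TPM values are StringTie abundances per gene, corrected for length. The deposited FPKM values come from the same run and served as an alternative. The deposited coverage values are mean coverage per base and gave the relative depth. The counts and DESeq2 tests that the authors describe were not used here, so limma replaced a count test.

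Entries of 1 gene name were summed. Each library was divided by its median ratio to the mean library over 13226 genes of at least 1 TPM everywhere. Genes of mean TPM at least 0.1 (17317) were log2 transformed after adding 0.1 and fitted in R 4.3.3 by limma 3.58.1, using empirical Bayes and a variance trend. Adjustment followed Benjamini and Hochberg, over every gene of a fit. This scale understates changes of low genes. Genes with no variation in a fit were left out of it. Pairwise sets used the 8 libraries of their 2 groups, and the other comparisons used all 16. Permutation tests were two-sided. Figures and tables used Python 3.11.15. The fits were tested on simulated data.

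All members are given by level, and fold changes with p for each member and comparison with an unadjusted p under 0.05, other values serving to complete a class. Bik is given without p, because its calls depend on the filter on low values. Of other pathway genes, up to 3 of smallest p per comparison are named. Members and lists were chosen with earlier results of these data known. Alternatives changed the filter (mean TPM of 1, or none), the pseudocount (1, or 0.01), the scaling (none, quantile, or FPKM values) and the model (no variance trend, all 16 libraries in 1 fit), and left out each library in turn. Leaving out the 3 sedentary libraries together was chosen after seeing the data. Batches are not given in the sources used here.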

Additional observations from a re-analysis of the deposited data

Results flagged for a closer look

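Over the 32 members without Bik, 128 groups of 4 libraries were examined. In 9 of them (7.03%) 1 library stood apart from the other 3 by its gap relative to the group's range. The share over all genes was not computed, and normally distributed values give such a library in about 1 group in 20. The high ones were Tnfrsf1a in p16 KO RUN replicate 13 (12.0 TPM against 10.4 to 10.6 in the others), Tradd in p16 WT CTL replicate 3 (10.5 against 6.67 to 7.19), Ripk1 in p16 WT RUN replicate 11 (4.84 against 3.70 to 3.74), Casp8 (2.46 against 1.41 to 1.54) and Pmaip1 (1.03 against 0.528 to 0.613) in p16 WT RUN replicate 10, and Bcl2 (6.46 against 5.86 to 5.93) in p16 WT RUN replicate 12. The low ones were Tnfrsf1b in p16 KO CTL replicate 8 (2.63 TPM against 3.28 to 3.30), Cflar in p16 WT RUN replicate 9 (12.2 against 13.3 to 13.4) and Casp2 in p16 KO RUN replicate 14 (7.27 against 8.13 to 8.23). None of these 9 genes had an unadjusted limma p under 0.05 in a comparison of all its libraries. With the 3 sedentary libraries left out, Cflar was called in Set C and Tnfrsf1a with running over both genotypes. Bik was at 0.123 TPM in p16 WT RUN replicate 12 and listed at 0 in the other 3 libraries, where any value above 0 stands apart, so it is not counted.

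The effect of running differed between the genotypes, at an unadjusted p under 0.05, for Casp6 (interaction 0.78), Xiap (-0.23) and Bcl2l2 (-0.23), each at a limma adjusted p = 0.797. These 3 of 33 members (9.09%) stand beside 5.48% of 17317 genes. Casp6 alone was called under all 25 alternatives. Xiap was not called without the 3 sedentary libraries (-0.12) or with TPM as deposited, and Bcl2l2 lost its call in 4 fits that left out 1 library.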

How the results depend on the processing

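No paired analysis was possible because the groups share no replicate numbers. Under the alternatives 378 of 449 log2 fold changes of the 22 pairs of a member and a comparison kept their direction and their call, 71 kept the direction without the call, and none reversed. The counts of called members given here are over all 33 and include Bik, whose call in Sets D and E and in the genotype comparison depends on the filter. With Bik they are 1 in Set D, 4 in Set E and 3 in the genotype comparison. Leaving out 1 library gave 4 to 7 called members in Set A, 1 to 8 in Set B, 1 to 4 in Set C, 1 to 2 in Set D, 1 to 4 in Set E, 2 to 4 in the interaction, 2 to 4 with running in both genotypes and 1 to 6 with genotype in both activity groups. Set B gave 8 without p16 WT CTL replicate 2, 1 without p16 KO CTL replicate 7, and 2 when p16 WT CTL replicate 1, 3 or 4 or p16 KO CTL replicate 6 was left out. Set C gave 4 without p16 WT RUN replicate 10 and 1 without p16 WT CTL replicate 1 or 3 or p16 WT RUN replicate 9, and Set D gave 2 without p16 WT CTL replicate 2 or 4. Set E gave 1 without p16 WT RUN replicate 11 or p16 KO RUN replicate 13 or 15, and 2 without p16 WT RUN replicate 9 or p16 KO RUN replicate 16. The genotype comparison gave 6 without p16 WT RUN replicate 10 and 1 without p16 KO CTL replicate 7. In those fits 1479 and 699 of 17317 genes were called, in that order. Over all genes, leaving out 1 library gave 2004 to 4736 calls in Set A, 523 to 1017 in Set C and 1108 to 1927 in Set D. It gave 482 to 1030 in Set E, 2263 to 3635 with running in both genotypes and 699 to 1861 in the genotype comparison. The ranges for Set B and the interaction are given below. Quantile normalization gave 1 member in Set C and 5 with running in both genotypes, beside 882 of 17313 and 2976 of 17317 genes. No variance trend gave 1 in Set C, beside 809 of 17314 genes. A filter at a mean TPM of 1 gave 0 in Set D, because it removes Bik, and leaving out the 3 sedentary libraries gave 2 there. In these fits of Set D 1286 of 14438 and 1927 of 17308 genes were called, in that order. Other causes were not tested. Set E has no value for that choice, as it holds none of these libraries. Over all genes, 1 fit of all 16 libraries gave 2205 calls in Set B in place of 1152, and leaving out the 3 sedentary libraries gave 1464 in place of 3195 in Set A and 1511 in place of 3030 with running in both genotypes. Leaving out 1 library moved the number of genes called in Set B to between 553 (p16 KO CTL replicate 7 left out) and 3067 (p16 WT CTL replicate 2 left out), and in the interaction to between 619 (p16 WT CTL replicate 3 left out) and 2381 (p16 WT CTL replicate 2 left out). It gave 2004 and 2062 in Set A without p16 KO CTL replicates 7 and 6, 523 in Set C without p16 WT RUN replicate 10, 1030 in Set E without p16 WT RUN replicate 12, and in the genotype comparison 785 and 1861 without p16 WT CTL replicates 1 and 2 in turn, and 699 when p16 KO CTL replicate 7 was left out. With TPM as deposited, 609 of 915 calls were higher in place of 510 of 949 in the interaction, and 2191 of 3024 in place of 1665 of 3030 with running in both genotypes. Without read counts, the precision of low members, among them those under 1 TPM and Casp8, is not known.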
